A study of Mus musculus with 367 samples.

Results

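Matrix fibroblasts of healing mouse skin were compared between post-wounding days 12 and 21 in 132 single cells, of 367 cells in the whole series and 250 at these 2 days. Members were chosen by their own expression: Col1a1 of at least 1000 FPKM, Rgs5 below 100 FPKM, Tyrobp below 50 FPKM, mitochondrial genes at no more than 15% of summed FPKM, and at least 2000 genes above 0. Day 12 gave 78 such cells (32, 27 and 19 in captures 1, 2 and 3) and day 21 gave 54 (18 and 36 in captures 1 and 2). All animals were Sm22-Cre;tdTomato mice of mixed background, wounded on the dorsum at 3 to 8 weeks of age per the labels (the study's methods give a narrower range within it), and no other agent is named. The transgene puts Cre under the promoter of Tagln (Sm22), a contractile gene, so viable tdTomato-high cells were a sort of cells in which that promoter is or once was active. Tissue of 2 to 3 animals was pooled at each time point, and cells were caught singly on a microfluidic chip made for large cells. A capture is one deposited matrix and served as the replicate. The sources used here do not say whether captures of a day came from separate animals. The p-values thus measure the spread between captures, which may be technical. For each gene that spread was moderated toward a trend over all genes, so an SE does not show the gene's own spread alone.

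Fibroblasts make and remodel the collagenous matrix of skin. In granulation tissue many of them turn on smooth muscle actin and other contractile genes and are then called myofibroblasts, which pull the wound edges together. Tenascins and periostin, matricellular proteins, are laid down in young wound matrix, whereas fibril-associated collagens and small leucine-rich proteoglycans bind formed collagen fibrils.

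The label was checked against markers of matrix fibroblasts. Col1a1, which the rule used and which was therefore not tested, averaged 7815, 4469 and 5405 FPKM at day 12 and 12944 and 6886 FPKM at day 21. Dcn and Lum are proteoglycans of collagen fibrils. Their capture means were 4175 to 4443 and 2216 to 2529 FPKM at day 12, and 5282 to 7796 and 2952 to 3056 FPKM at day 21. Fbln2, also on the list of 10 matrix fibroblast markers, went the other way. It averaged 1160, 877 and 708 FPKM at day 12 and 344 and 391 FPKM at day 21. Of the 9 list members tested, 7 had a positive difference and 2 a negative one, and none was called. The nearest cell inside the Col1a1 limit had 1011 FPKM and the nearest outside 612 FPKM, and 3 cells were left out on that limit alone. For Rgs5 these values were 67.0 and 176 FPKM (16 cells left out on it alone), and for Tyrobp 9.96 and 1515 FPKM (2 cells). The mitochondrial share was 14.2% in the nearest cell inside its limit and 16.1% in the nearest outside (9 cells left out on it alone), while the matrix cell with the fewest genes had 2273.

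Median depth, estimated from the step that 1 fragment makes in FPKM, per matrix cell was 1995791, 1174898 and 1258925 fragments for the captures of day 12 and 2213241 for each of day 21. Median genes per cell were 6060 to 6259 at day 12 and 5434.5 to 5906 at day 21. Summed RNA of the Y-linked genes Ddx3y and Eif2s3y was at 10 FPKM or more in 9, 0 and 13 day 12 cells (captures 1, 2 and 3) and in 0 of the 54 day 21 cells, whereas Xist was at that level in 26 and 11 cells of the 2 days. Markers of other cell types were sparse. Some mural genes (Notch3, Cspg4, Kcnj8, Abcc9, Cox4i2, Higd1b) and myeloid genes (Ptprc, Lyz2, Fcer1g, Csf1r) were used to flag cells. In 16 cells any of these reached 10 FPKM. Without the 16 cells, 68 genes passed the test described below, 60 of them among the 78 called with all cells. The other mural and myeloid markers were not screened. Among them, Ndufa4l2 averaged 54.9 FPKM in capture 1 of day 21, where no cell was flagged. For the other cell types, their part in the results was not tested. The 15 myeloid markers summed to 11.4 to 95.0 FPKM at day 12 and 12.3 to 19.1 FPKM at day 21, with the highest sum in capture 3 of day 12, and none of the 15 was at 0 in all 5 captures. The 12 mural markers summed to 23.5 to 45.1 and 28.7 to 75.3 FPKM, with Higd1b at 0 throughout. The 10 endothelial markers summed to 0.970 to 9.10 and 1.80 to 33.3 FPKM, and Cdh5, Kdr, Egfl7, Cldn5 and Esam were at 0 in all 5 captures. The 10 keratinocyte markers summed to 2.65 to 12.2 and 0.291 to 14.4 FPKM with 7 at 0, the 10 Schwann and melanocyte markers to 0.766 to 70.1 and 17.7 to 90.5 FPKM with 2 at 0, and the 10 lymphocyte and erythroid markers to 1.34 to 11.4 and 0.0986 to 0.25 FPKM with 2 at 0. The 7 mature adipocyte markers never summed to more than 0.175 FPKM, and Adipoq, Cidec, Cfd, Adrb3 and Lep were at 0.

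Each gene's level in a capture is the mean over its matrix cells of log2(FPKM + 1), and differences between days are on that scale, which understates changes of low genes. Of 13372 genes tested, 78 passed an adjusted p of 0.05 (0.583% of those tested), with 28 higher at day 21 (0.209%) and 50 lower (0.374%). Higher genes differed by 1.04 to 5.22 and lower genes by -4.24 to -1.48. The median difference of all genes was -0.18. Keeping only the 6260 genes that averaged 10 FPKM or more gave -0.405. List medians below are to be read against both values, and against -0.405 where members are mostly above that level. With captures centred on the median of all genes, 85 genes passed, 47 higher and 38 lower, against 28 and 50 without centring. The calls need every capture: without capture 1, 2 or 3 of day 12, or capture 1 of day 21, limma called no gene (1623, 1278, 1442 and 1131 genes had an unadjusted p under 0.05), and without capture 2 of day 21 it called 5, none of them among the 78. All 78 kept their direction in each of those fits, and 76 kept an unadjusted limma p under 0.05 in all 5. Without cells holding Y-linked RNA at 10 FPKM or more, 16 genes passed, 9 higher and 7 lower, and all 78 again kept their direction. That fit had 23, 27 and 6 cells in captures 1, 2 and 3 of day 12. Cells with less of this RNA stayed in: before the removal Ddx3y was above 0 in 94.7% of the matrix cells of capture 3. Captures of the 2 days did not overlap for any of the 78 genes, nor for 3647 of all 13372 genes (27.3%).

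**Figure D1:**
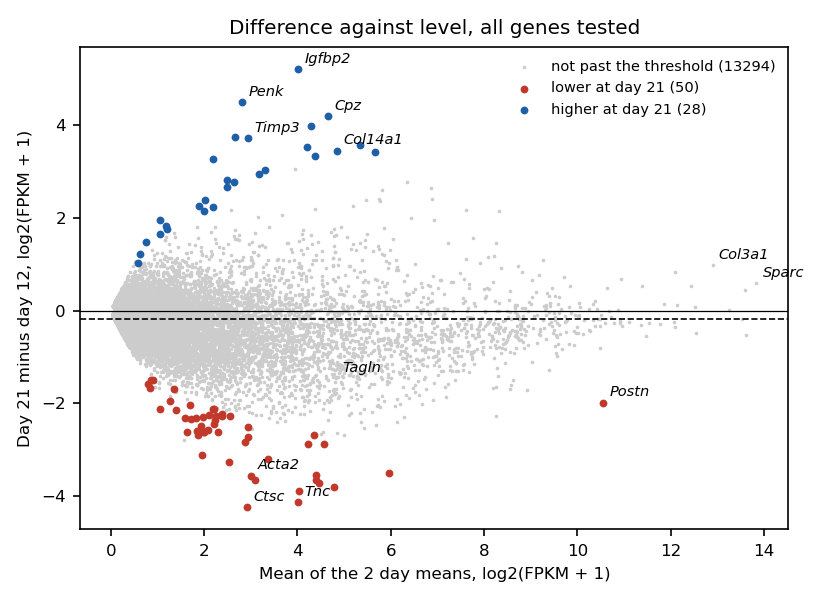
Difference between days (day 21 minus day 12, log2(FPKM + 1)) against the mean of both day means, 1 point per gene tested; the dashed line is the median of all genes. The 50 lower genes include Postn at a high level, and the 28 higher genes are led by Igfbp2 and Penk, while Col3a1 and Sparc lie near the right edge without passing the threshold.

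The upstream sequences of the 3 contractile genes that were called lower are shown first. The CArG box, the site that serum response factor is known to bind in many contractile genes, was searched as its exact 10-base pattern, which reads as the same pattern on both strands, in the 250 bases before each RefSeq gene start (build GRCm38.p6). Capitals mark the box. The pattern is CC, then A or T only, then GG. In Myl9 1 exact match began 161 bases before the start, and in Acta2 and Tpm1 there was no exact match. Stretches that differ from the pattern by 1 base were not counted or capitalised. Examples are ccctatatgg and ccttgtttgg in Acta2, ccatatatag in Tpm1 and ccttgtaagg in Myl9. Whether any of these is bound was not tested.
Acta2, chr19:34255374-34255623, minus strand: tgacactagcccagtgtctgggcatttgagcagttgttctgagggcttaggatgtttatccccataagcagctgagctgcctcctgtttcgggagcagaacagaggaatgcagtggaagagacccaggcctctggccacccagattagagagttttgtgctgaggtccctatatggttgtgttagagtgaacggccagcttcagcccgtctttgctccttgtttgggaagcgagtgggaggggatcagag
Tpm1, chr9:67049214-67049463, minus strand: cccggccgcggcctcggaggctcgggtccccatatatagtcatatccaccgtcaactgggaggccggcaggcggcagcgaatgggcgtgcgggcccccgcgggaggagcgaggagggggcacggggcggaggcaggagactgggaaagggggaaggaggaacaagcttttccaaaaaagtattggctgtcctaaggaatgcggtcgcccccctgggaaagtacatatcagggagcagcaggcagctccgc
Myl9, chr2:156775214-156775463, plus strand: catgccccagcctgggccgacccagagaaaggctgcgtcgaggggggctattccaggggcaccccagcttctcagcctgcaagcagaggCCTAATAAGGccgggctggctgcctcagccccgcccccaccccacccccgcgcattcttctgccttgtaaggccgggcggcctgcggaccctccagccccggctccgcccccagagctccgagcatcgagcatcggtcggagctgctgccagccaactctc
An exact match was present in 1.62% of the 27025 genes with a RefSeq promoter sequence, and in 120 of the 9026 tested genes with a sequence (1.33%). A sequence was at hand for 60 of the called genes: 1 of 38 lower genes (Myl9) and 0 of 22 higher genes held an exact match. In the list of contractile and actin genes it was 4 of 23 (Cnn2, Myl6, Myl9 and Vcl). A match is a description of letters in this window only.

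Acta2, Tpm1 and Myl9 fell, out of 26 contractile and actin genes tested. Acta2, which encodes smooth muscle actin (chr19:34241090-34255590, minus strand), had mean levels of 5.11, 5.76 and 3.50 over the captures of day 12 and 0.98 and 1.49 over those of day 21. The lowest day 12 capture lay above both day 21 captures, and captures of the days were apart in all 78 called genes. Acta2 fell by 3.56 (SE 0.60, adjusted p = 0.0025), and Acta2 RNA was found in 56 of 78 cells at day 12 and 15 of 54 at day 21. Counts of cells with a gene's RNA, here and below, were not equalised for depth, whose part in them was not tested. Tpm1, a tropomyosin of actin filaments, went from 7.63, 8.28 and 7.23 to 4.11 and 4.31 (-3.50, adjusted p = 0.012). Myl9, a regulatory myosin light chain, went from 5.62, 6.60 and 4.75 to 3.23 and 2.36 (-2.86, adjusted p = 0.039). In both genes, as in every called gene, the captures of day 21 did not overlap those of day 12. Tagln, whose promoter drives the Cre, stood at 5.95, 5.95 and 4.76 against 3.47 and 4.73, a difference of -1.45 (adjusted p = 0.38) that did not pass the threshold. Tagln shares exon sequence with genes on the opposite strand, and the sources used here name no strand setting, so reads of both strands may be mixed. Over the 26 genes 3 fell, none rose and 23 had a negative difference. Their median was -0.90, against -0.18 over all genes and -0.405 over genes that averaged 10 FPKM or more.

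Matricellular genes changed in both directions. Tnc, encoding tenascin-C (chr4:63959785-64047015, minus strand), had levels of 5.55, 6.71 and 5.97 at day 12 and of 2.35 and 1.55 at day 21. The day 15 captures, both at about 4.43, lay between them. Tnc fell by 4.12 (SE 0.65, adjusted p = 0.0013), the second lowest difference among the called genes, and was found in 74 of 78 and 29 of 54 cells. Tnn, another tenascin, fell by 2.45 (adjusted p = 0.037). Postn, encoding periostin (chr3:54361109-54391037, plus strand), stayed abundant but fell: its levels were 11.77, 11.28 and 11.57 at day 12 and 9.75 and 9.37 at day 21 (-1.98, SE 0.40, adjusted p = 0.014). In mean FPKM, Postn averaged 3445 to 4480 across day 12 and 1569 and 2115 at day 21. Ccn5, a member of the CCN family of matricellular proteins, rose from 0.54, 0.16 and 0.92 to 2.22 and 5.42 (3.28, adjusted p = 0.0066). Its day 21 captures were far apart, with an SD of 2.26, while the moderated SE of the difference was 0.60. The Ccn5 difference was 1.68 without capture 2 of day 21 and 4.88 without capture 1. Of the 24 genes of this list tested, 3 fell and 1 rose, and the median was -0.47. Fn1, fibronectin, and Sparc, a collagen-binding matricellular protein, did not pass, at -0.56 (adjusted p = 0.70) and 0.60 (adjusted p = 0.36).

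**Figure D2:**
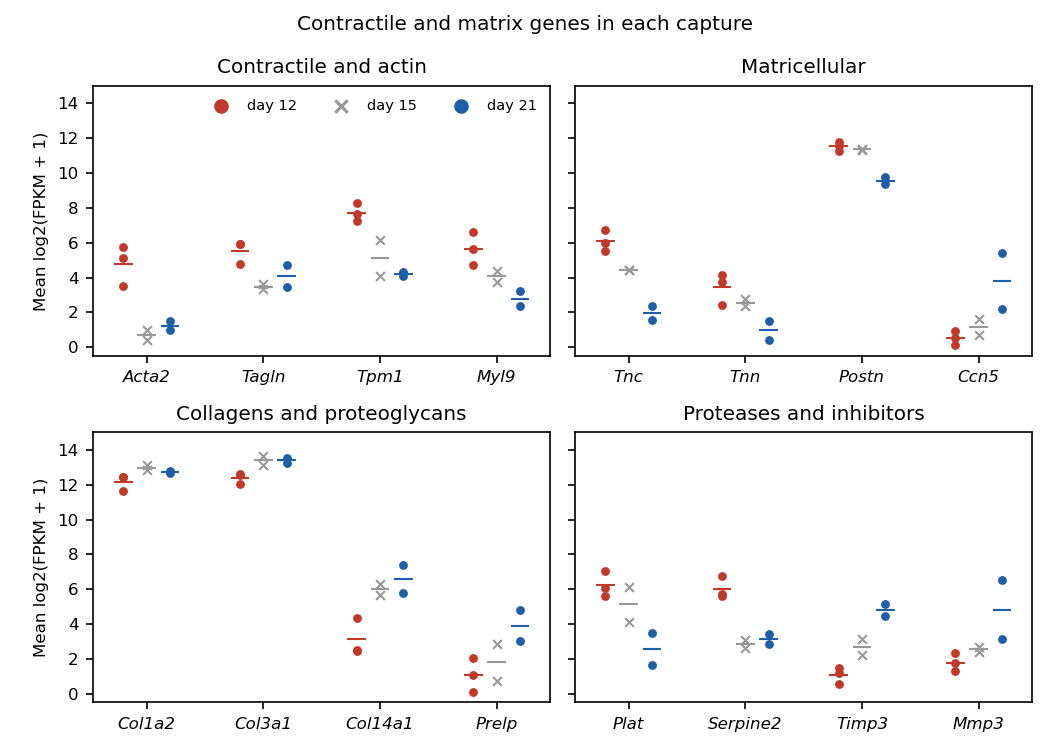
Mean log2(FPKM + 1) over matrix cells for 16 contractile and matrix genes; each mark is 1 capture, circles for days 12 (3 captures) and 21 (2 captures), crosses for day 15 (2 captures), and short bars are day means. Acta2, Tpm1, Tnc and Postn sit lower at day 21, Col14a1, Timp3 and Prelp sit higher, and Col1a2 differs little.

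The fibrillar collagens gave no call. Col3a1 stood at 12.60, 12.04 and 12.57 at day 12 and 13.24 and 13.54 at day 21, a difference of 0.99 (SE 0.30, adjusted p = 0.16). Col1a2 stood at 12.44, 11.65 and 12.45 against 12.65 and 12.76 (0.53, SE 0.32, adjusted p = 0.52). In both genes every day 21 capture was above every day 12 capture, but the differences did not pass the threshold. Col3a1 did pass in 3 alternatives: adjusted p was 0.021 with the 5 captures of days 12 and 21 alone, 0.034 with a pseudocount of 10 FPKM and 0.035 with a mitochondrial share of at most 10%. Over the 8 fibrillar collagens tested, 2 differences were positive and 6 negative, with a median of -0.48. Captures of the 2 days did not overlap in 6 of the 8, with 2 higher and 4 lower at day 21. Over all genes tested the share without overlap was 27.3%. Col14a1, a collagen that sits on the surface of fibrils (chr15:55307750-55520803, plus strand), rose: its levels were 2.54, 2.48 and 4.34 at day 12 and 5.76 and 7.39 at day 21 (3.46, SE 0.72, adjusted p = 0.015), and it was found in 43 of 78 and 53 of 54 cells. Its day 15 captures, at 6.29 and 5.69, overlapped those of day 21. On mean FPKM the day 12 captures averaged 76.0, 40.8 and 70.2 and those of day 21 82.1 and 281, a smaller separation than on the log scale. It was the only call among the 17 other collagens tested. Col12a1, which like Col14a1 is fibril-associated, differed by -0.47 (adjusted p = 0.75).

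Among small leucine-rich proteoglycans, which bind collagen fibrils, Prelp rose from 1.10, 0.10 and 2.07 to 3.01 and 4.80 (2.82, adjusted p = 0.026). The Prelp difference ranged from 1.92 to 3.71 over the left-out captures. Without cells with Y-linked RNA at 10 FPKM or more it was 1.95 (limma adjusted p = 0.64). Exons of Prelp overlap Gm15851 on the opposite strand. Dcn and Lum, which mark the cell type, differed by 0.83 (adjusted p = 0.34) and 0.69 (adjusted p = 0.52). Of 13 proteoglycan genes tested 1 rose and 9 had a positive difference, and the median was 0.67. Elastic fibre genes gave no call among 17 tested; 12 were positive and the median was 0.57. Eln, the elastin gene, had a difference of 1.24 (adjusted p = 0.29), Fbn1, fibrillin-1, of 0.60 (adjusted p = 0.73), and Mfap5, a microfibril protein, of 0.66 (adjusted p = 0.73). None of 29 genes of collagen processing and crosslinking passed, with Lox, lysyl oxidase, at 0.65 (adjusted p = 0.71). Their median was -0.21, against -0.18 over all genes and -0.405 over genes that averaged 10 FPKM or more.

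Of 29 matrix proteases and inhibitors tested, 2 rose and 2 fell, while 21 differences were negative and 8 positive. Plat, tissue plasminogen activator, fell from 5.58, 7.05 and 6.05 to 3.51 and 1.64 (-3.65, adjusted p = 0.013). Serpine2, an inhibitor of plasminogen activators and thrombin, fell from 5.72, 6.73 and 5.60 to 3.41 and 2.86 (-2.88, adjusted p = 0.026). Timp3, a matrix-bound inhibitor of metalloproteinases, rose from 1.47, 0.55 and 1.18 to 4.47 and 5.12 (3.73, SE 0.55, adjusted p = 0.00091). It overlaps Syn3 on the opposite strand in exon sequence. Mmp3, stromelysin-1, rose by 3.04 (adjusted p = 0.031) with day 21 captures at 3.13 and 6.53. Their SD was 2.40, while the moderated SE of the difference was 0.69. The Mmp3 difference was 1.34 without capture 2 of day 21 and 4.74 without capture 1. The median over the list was -0.28. Timp1 stood at 5.74, 7.47 and 7.51 against 4.53 and 4.37, a difference of -2.46 that missed the threshold (adjusted p = 0.12), and Mmp2 and Mmp14 differed by 0.20 (adjusted p = 0.91) and -0.49 (adjusted p = 0.77).

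The gene with the highest positive difference was Igfbp2, an extracellular binding protein of insulin-like growth factors (chr1:72824503-72852474, plus strand). Its levels were 1.06, 0.31 and 2.83 at day 12 and 7.06 and 6.18 at day 21. The day 15 captures, at 6.08 and 5.51, were near those of day 21. Igfbp2 rose by 5.22 (SE 0.70, adjusted p = 0.00025), and its RNA was found in 18 of 78 and 45 of 54 cells. In mean FPKM, capture 3 of day 12 averaged 179 against 16.3 and 4.97 in captures 1 and 2, while 7 of its 19 cells held the RNA. Igfbp3, of the same family, went the other way, from 3.05, 4.40 and 3.12 to 1.18 and 1.33 (-2.27, adjusted p = 0.044). Ptn, the heparin-binding growth factor pleiotrophin, fell from 5.03, 5.44 and 8.47 to 2.35 and 2.84 (-3.72, adjusted p = 0.015). Of 26 genes of the PDGF, FGF and IGF list tested 1 rose and 2 fell, and the median was -0.26. Igf1 and Pdgfra gave differences of -1.01 (adjusted p = 0.53) and 0.35 (adjusted p = 0.85).

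Penk, encoding the opioid precursor proenkephalin (chr4:4133531-4138819, minus strand), had levels of 0.25, 0.22 and 1.22 at day 12 and 4.30 and 5.83 at day 21. It rose by 4.50 (SE 0.57, adjusted p = 0.00019), from 6 of 78 cells to 35 of 54, and unlike Igfbp2 its day 15 captures, at 2.38 and 0.63, were nearer to day 12. Cpz and Cpe, both carboxypeptidases, rose by 4.20 (adjusted p = 0.0025) and 3.57 (adjusted p = 0.0092). Fxyd1, a regulator of the sodium pump, rose by 3.98, Itih5, of a family of hyaluronan-binding proteins, by 3.76, and Gpc3, a cell-surface heparan sulfate proteoglycan, by 3.42. Lgals3, galectin-3, rose by 3.53 and Adh1, an alcohol dehydrogenase, by 3.34. These genes were selected for captures that do not overlap between the days. Of Cpz, Cpe, Fxyd1, Itih5, Gpc3 and Adh1, the closest pair of captures was in Adh1, at 3.28 and 5.39.

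Ctsc, the lysosomal protease cathepsin C (chr7:88278085-88310888, plus strand), had the lowest difference: its levels were 4.13, 6.92 and 4.07 at day 12 and 0.77 and 0.84 at day 21 (-4.24, SE 0.67, adjusted p = 0.0013). The day 12 captures were uneven, with capture 2 highest. Tmem176b and Tmem176a, adjacent membrane protein genes whose exons overlap on opposite strands, fell by 3.88 and 3.27, and Pla2g7, a phospholipase that inactivates platelet-activating factor, fell by 3.12 (adjusted p = 0.014). The removal of the cells flagged above by mural or myeloid genes was chosen after seeing the data. Without those cells the differences were -4.37 (Ctsc), -3.90 (Tmem176b), -3.08 (Tmem176a) and -3.42 (Pla2g7). Of myeloid genes, only Ptprc, Lyz2, Fcer1g and Csf1r were screened. Ctss, for example, averaged 23.5 FPKM in capture 3 of day 12 and was not screened. Fabp5, a carrier of fatty acids and retinoic acid, fell from 4.95, 4.80 and 5.01 to 1.13 and 1.39 (-3.66, adjusted p = 0.00097). Spread between captures was small within day 12 and within day 21, while the day 15 captures were at 0.93 and 1.95. Without cells with Y-linked RNA at 10 FPKM or more the Fabp5 difference was -2.81 (limma adjusted p = 0.31). Maged2 was at 6.27, 6.04 and 6.16 against 2.87 and 2.36 (-3.54, adjusted p = 0.0058). Ankmy1 fell by 3.80 (adjusted p = 0.0079), but its exons overlap Gpc1 on the opposite strand, and in mean FPKM its captures stood at 474, 283 and 299 against 267 and 35.1.

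**Figure D3:**
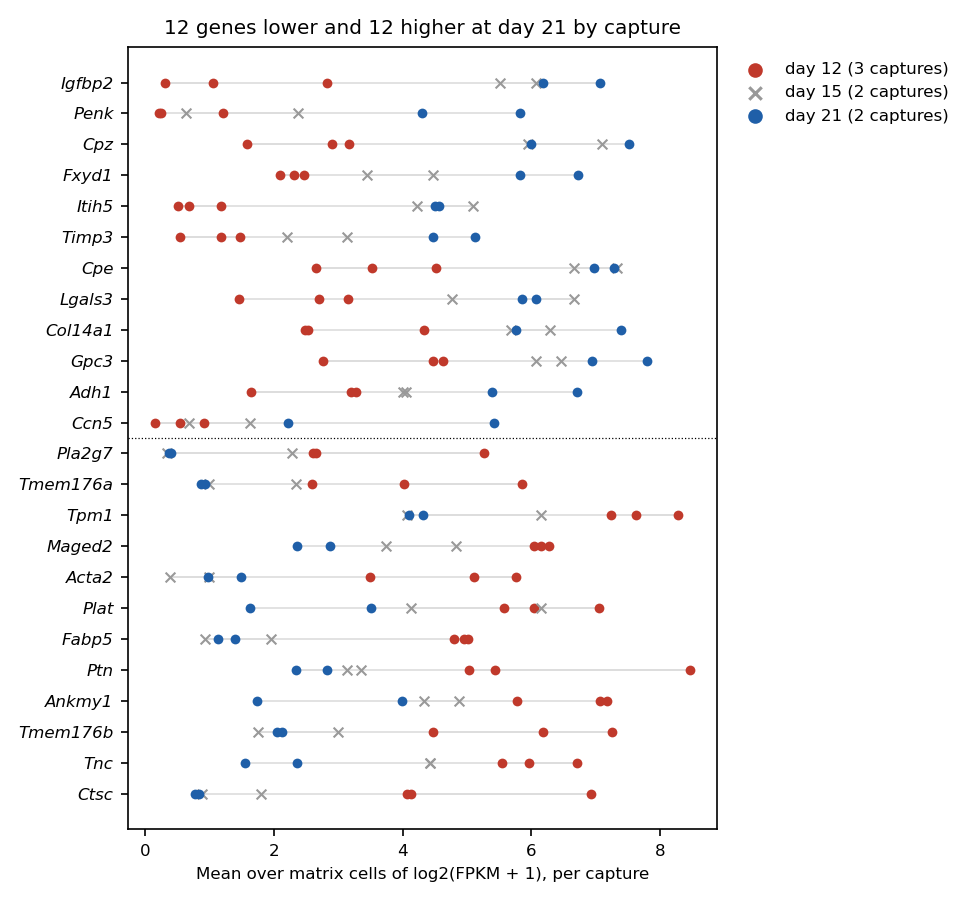
Mean log2(FPKM + 1) per capture for the 12 genes with the largest positive and the 12 with the largest negative difference among called genes with non-overlapping captures, at least 10 FPKM on the higher day and no clone name; red circles are the 3 day 12 captures, blue circles the 2 day 21 captures and grey crosses the 2 day 15 captures. Red and blue circles do not overlap, because the genes were selected on that; differences run from -4.24 for Ctsc to 5.22 for Igfbp2.

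Among signalling and cell identity genes few members passed. Tgfb2, a ligand of the TGF-beta family, fell from 1.82, 3.33 and 2.99 to 0.61 and 0.74 (-2.04, adjusted p = 0.040), the only call of 25 TGF-beta and activin genes, whose median was 0.0045. No gene of the BMP list (14 tested, median -0.11) or the Wnt list (20 tested, median 0.18) passed. The Wnt inhibitors Sfrp2 and Sfrp4 differed by -0.38 (adjusted p = 0.84) and -0.08 (adjusted p = 0.95). Stra6, the retinol transporter, was at 1.54, 2.35 and 1.12 at day 12 and at 0 and 0.011 at day 21 (-1.66, adjusted p = 0.015), in 29 of 78 cells and 1 of 54. With Fabp5 it made 2 lower calls among 15 retinoid genes, whose median was 0.16, and Crabp1, a retinoic acid binding protein, differed by -1.87 (adjusted p = 0.25). Sdc1, a heparan sulfate proteoglycan listed among follicle mesenchyme genes, fell by 2.57 (adjusted p = 0.012), the only call of 13.

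Il33, an alarmin cytokine, rose from 0.27, 0.15 and 0.39 to 1.36 and 2.86 (1.84, adjusted p = 0.015), and its difference was 1.09 without capture 2 of day 21 and 2.59 without capture 1. Ccl19, a chemokine for T cells and dendritic cells, was listed at 0 in all 3 day 12 captures and stood at 1.34 and 1.13 at day 21 (adjusted p = 0.0044), with RNA in 11 of 54 cells. Of the 60-base words of Ccl19 transcripts 49.2% also occur in other annotated genes, among them Gm2564, which was called too, so the split of reads between these copies is uncertain. These were the only calls of 26 acute phase and cytokine genes, and Saa3 and Cxcl12 differed by -1.24 (adjusted p = 0.19) and 0.66 (adjusted p = 0.64). Pdia4, an endoplasmic reticulum foldase, fell by 2.69 (adjusted p = 0.038), the only call of 42 genes of the endoplasmic reticulum and secretion, of which 34 were negative.

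The imprinted growth genes were all negative without a call: 16 of 16 lay below 0 with a median of -0.98. Mest was at 2.39, 2.66 and 4.64 against a day 21 mean of 1.02 ± 0.25 (SD, n = 2), a difference of -2.21 (adjusted p = 0.086). Its limma adjusted p was 0.045 without cells with Mki67 or Top2a RNA, a removal chosen after seeing the data. The exons of Mest overlap Copg2 on the opposite strand. H19 was at 3.26, 1.38 and 5.34 against 0.86 and 1.58 (-2.11, adjusted p = 0.21), with overlapping captures. Igf2 and Dlk1 were listed at 0 in both day 21 captures, but at day 12 their RNA was found in only 11 and 9 of 78 cells. Dlk1 was also at 0 in capture 2 of day 12. Of the 60-base words of Igf2 60.8% also occur in Gm49394, so its read assignment is uncertain. Of 79 nuclear genes of oxidative phosphorylation 70 were negative (median -0.75), and of 81 ribosomal protein genes 74 (median -0.33), again with no call. Immediate early genes, which respond to dissociation, were mostly positive (23 of 29, median 0.62) without a call, and Fos stood at 4.90, 9.38 and 8.30 against 8.31 and 9.66 (adjusted p = 0.50). No call fell in the lists of adipogenic (13 tested), interferon and MHC class I (25), glycolysis and hypoxia (26), cell cycle (35) or Hox genes (8). Lpl and Mki67 differed by -0.16 (adjusted p = 0.94) and -0.25 (adjusted p = 0.75), and Pparg, the adipogenic regulator, was at 0 in the matrix cells of every capture. In the dermal fibroblast subtype list (27 tested, median 0.49) Col14a1 was the only call, with Dpp4 at 0.76 (adjusted p = 0.32) and Cd34 at 1.09 (adjusted p = 0.52).

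**Figure D4:**
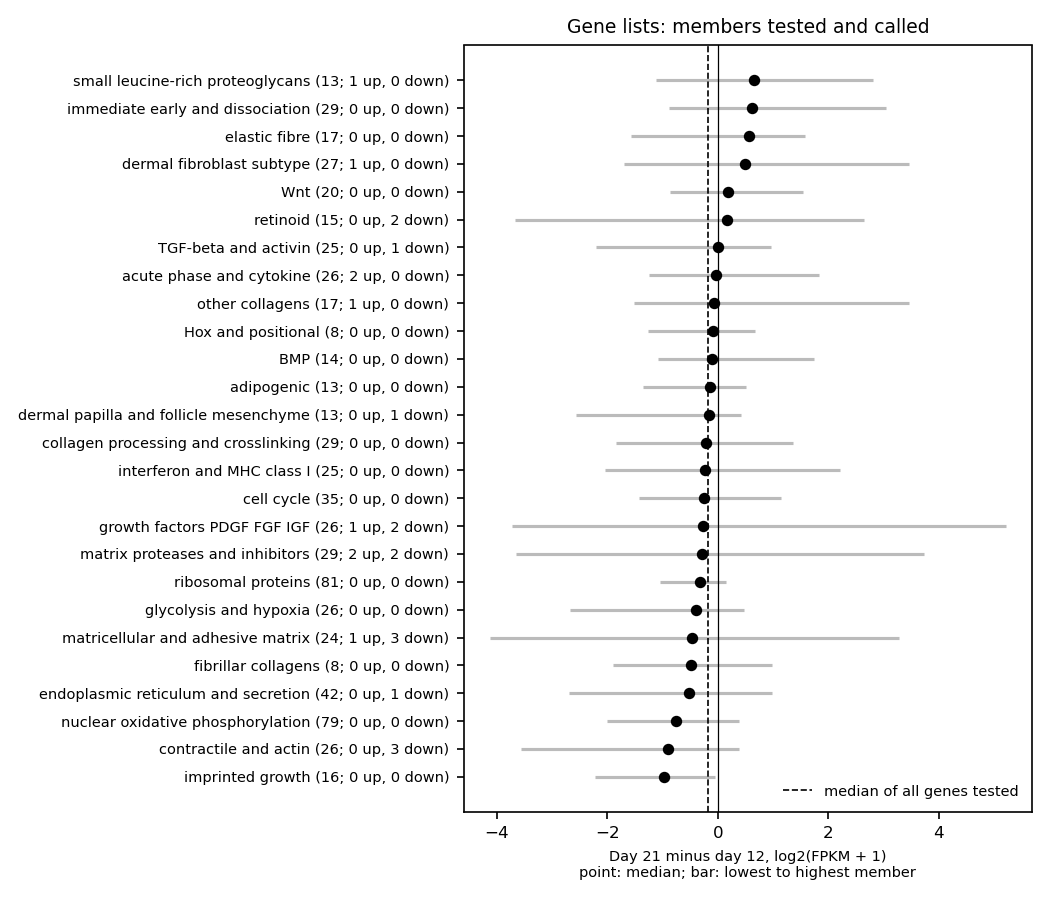
Median difference (point) and lowest to highest member (bar) of each gene list, day 21 minus day 12 in log2(FPKM + 1), with the number of members tested, called higher (up) and called lower (down) in brackets; the dashed line is the median of all genes tested. Imprinted growth genes and contractile genes have the lowest medians, at -0.98 and -0.90, and proteoglycans the highest, at 0.67.

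Day 15, with 72 matrix cells in 2 captures, entered the fit only through the spread between captures. Its median depth per matrix cell was 977237 and 977496 fragments in captures 1 and 2, below that of every capture of days 12 and 21. Median genes per cell were 5464.5 and 4857. The part of depth in the placement that follows was not tested. The day 15 means placed the lower and the higher genes differently. Of the 50 lower genes 44 had passed the midpoint between the day 12 and day 21 means by day 15, and 7 lay at or beyond the day 21 mean. Acta2 was one of these, at 0.99 and 0.40. Of the 28 higher genes 12 had passed the midpoint and 2 lay at or beyond the day 21 mean. Itih5, at 5.10 and 4.22, was one of the latter, while Penk and Ccn5 had not reached the midpoint. Postn, at 11.35 and 11.40, was still within the range of day 12. These counts carry no test, because the genes were selected on the difference between the outer days.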

How the data were processed

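Viable tdTomato-high cells of wound dermis were profiled by full-length single-cell RNA-seq without spike-ins; per the study's methods, wells with more than 1 cell were left out. Per the labels and methods the authors aligned paired reads with Bowtie 1.0.0 to mm10 with GENCODE annotation, quantified them with RSEM, and deposited FPKM per gene and cell. The study's later normalization and batch correction were not applied here. Of the limits the study states, its minimum of aligned reads could not be applied to FPKM; at most 11000 genes and 15% mitochondrial content leave 315 of 367 cells, so this count and the study's own rest on different filters. No matrix cell of days 12 and 21 exceeded 11000 genes. The description field of 1 capture (day 12, capture 3) names another capture's matrix, so columns were matched by title.

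Of 50600 gene identifiers 50376 were matched to GENCODE symbols. For each gene and capture, log2(FPKM + 1) was averaged over matrix cells, and a gene was tested if its FPKM averaged 1 or more over the 5 captures compared, using limma 3.58.1 (R 4.3.3; variance trend, all 7 captures, contrast of day 21 with day 12, two-sided, Benjamini-Hochberg over all genes tested). Col1a1, Rgs5, Tyrobp and the 37 mitochondrial genes were not tested, because the rule uses them. The fitting code was tested on simulated data. FPKM holds no counts, so intervals for counting error are not given; depth was estimated from whole-fragment steps in single-transcript genes.

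Genes were named by rule: the 12 largest differences in each direction among genes past the threshold with non-overlapping captures, at least 10 FPKM on the higher day and no clone name; up to 4 called members of each list by size; and a fixed set of matrix, growth and adipogenic genes. The members and lists were chosen with earlier results of these data known. Alternatives covered pseudocount, filter, scaling, cell rule, weights and left-out captures. Exact permutation of 5 captures has 10 assignments and a smallest two-sided p of 0.1, so it cannot reach 0.05.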

Additional observations from a re-analysis of the deposited data

How the results depend on the processing

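All 78 called genes kept their direction in every alternative that tested them (24 for 72 genes, and 23 for the 6 not tested in 1 of them), but the number of calls depended on the processing. It stayed within 1.5 times of 78 (55 to 104) with a pseudocount of 0.1, a minimum of 10 FPKM, cells rescaled without mitochondrial genes, centring, the 5 compared captures alone, weights by cell number, protein-coding genes alone, the 4 other cell rules, and the removal of cells with Mki67 or Top2a RNA or with mural or myeloid RNA. It was 51 with a pseudocount of 10 FPKM, 10 without the variance trend, 16 without cells with Y-linked RNA, 1 on the log2 of mean FPKM and 0 without a filter on low values (25454 genes in limma, 1747 at an unadjusted p under 0.05); the cause was not tested. Leaving out 1 capture gave 0 to 5 calls, with 3 captures against 2 as the limit of the design. The 3 removals of cells by their RNA were chosen after seeing the data. That for mural or myeloid RNA used only the flagging genes named above.

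A limma fit with the capture number as replicate block gave 0 calls (1396 genes at an unadjusted p under 0.05); all 78 had an unadjusted p under 0.05 in it. Same-numbered captures of days 12 and 21 correlated by 0.12 and 0.07 in their deviations from the day mean, and nothing in the sources says that a number marks a shared animal or day.

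Named genes that never passed changed sign as follows. Sfrp4 was at 0.016 with a pseudocount of 10 FPKM, 0.12 centred, 0.17 weighted and 0.056 without cells with Y-linked RNA, and ranged from -0.94 to 0.78 over the left-out captures. Lpl was at 0.043 centred and 0.19 weighted, with a range of -1.06 to 0.74. Mmp2 was at -7.049e-05 on the log2 of mean FPKM and -0.02936 with Col1a1 of at least 300 FPKM, with a range of -0.06891 to 0.46. Sfrp2 was at 0.29 on the log2 of mean FPKM. The range was -0.51 to 0.072 for Mki67, -0.02044 to 0.73 for Pdgfra, -0.009014 to 1.33 for Mfap5 and -0.2193 to 2.40 for Cd34.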
